A study of Saccharomyces cerevisiae with 6 samples.

Results

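The 41 genes described here were grouped as amino acid and methionine synthesis genes of budding yeast, Saccharomyces cerevisiae. Some of them, such as GDH2, ARO9 and MET7, act in breakdown or in accessory steps. All were chosen by gene symbol and are 41 of the 979 yeast genes on the array. The symbols were GLN1, GLT1 and those made of a number after a standard prefix for amino acid synthesis (ARG, HIS, ILV, BAT, LYS, TRP, ARO, GDH, HOM, THR, SER, SHM, AAT and MET). ARG82, an inositol polyphosphate kinase gene, was left out. GCN4, GLY1, TYR1, PHA2 and ALT1, and all genes of the prefixes CPA, LEU, ASN, CYS, STR and PRO, were sought and had no probe under those symbols. All 41 symbols of the files equalled those of the R64 gene table.

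The study compared RNA of a wild type strain with RNA of the same wild type strain overexpressing ACC1, the gene of acetyl-CoA carboxylase. Each group had 3 one-colour arrays of biotin-labelled RNA amplified from total RNA. The strain background, the means of overexpression, the medium, the growth phase and whether replicates were separate cultures were not stated in the labels. The p-values therefore reflect the spread of these 6 samples alone, part or all of which may be technical. ACC1 itself averaged 11.77 ± 0.10 (SD, n = 3) in wild type as normalized log2 intensity. With ACC1 overexpression it averaged 14.08 ± 0.07 (SD, n = 3), higher by 2.32 with a standard error of 0.07 (limma adjusted p = 1.18e-07).

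Yeast builds amino acids from intermediates of glycolysis, the pentose phosphate pathway and the citric acid cycle, and takes most of their nitrogen from glutamate and glutamine. When any amino acid runs short, uncharged tRNA activates the kinase Gcn2, which favours translation of the activator Gcn4. Gcn4 raises transcription of genes in many amino acid pathways at once, a response called general amino acid control, with HIS3 and HIS4 among its classic targets. Single pathways have further regulators of their own, such as Lys14 in lysine synthesis.

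For every gene the array carried 1 probe, in 2 to 4 copies called spots. The probes of the 3 genes that passed the test, and of the 3 that did not pass but had the largest differences among genes whose groups did not overlap, are shown in lower case in the orientation that the scanner tables list them, which was not checked against a genome.
HIS1: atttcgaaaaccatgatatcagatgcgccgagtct
HIS4: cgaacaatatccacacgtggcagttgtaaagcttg
HIS7: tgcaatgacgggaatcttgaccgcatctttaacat
LYS2: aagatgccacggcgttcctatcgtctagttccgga
GDH1: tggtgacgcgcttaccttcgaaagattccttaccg
GDH3: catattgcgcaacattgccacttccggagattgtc
Against every other probe of the array, the longest shared run of a probe of the 41 genes was 9 to 13 bases, and their GC content lay between 42.9% and 54.3%. GDH1 and GDH3 are close paralogs, and their probes had at most 5 bases in a row in common. Binding of transcripts of genes without a probe was not tested.

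Of the 41 genes, 2 rose and 1 fell in ACC1 overexpression when limma p-values were adjusted over all 979 genes by Benjamini-Hochberg and held to 0.05. HIS1 and HIS4 of histidine synthesis rose, and LYS2 of lysine synthesis fell. These 3 make up 7.32% of the 41 genes, beside 3.47% of all genes called. By direction, 2.66% of all genes were called higher and 0.817% lower. The values of the groups did not overlap for 13 of the 41 genes, 9 higher and 4 lower. That is 31.7%, beside 24.7% of all genes (13.3% higher and 11.4% lower). An unadjusted limma p under 0.05 was reached by 6 genes that were higher and 4 that were lower, 10 of 41, and by 20.1% of all genes. The histidine and lysine families held all 3 calls, so by this split none of the other 32 genes passed. Of those 32 genes, 6 had an unadjusted limma p under 0.05. The median difference of the 41 genes was 0.03 on the log2 scale, with quartiles of −0.06 and 0.09, beside a median of −0.01 and quartiles of −0.08 and 0.07 over all genes. It lay above 0 for 53.7% of the 41 genes and 46.4% of all genes. Array intensity is relative to the rest of the labelled RNA of a culture, so less of a transcript per cell and fewer cells that make it cannot be told apart. Before normalization the median yeast spot was 2.17-fold brighter in wild type (3686 to 4565, against 1796 to 2022 with ACC1 overexpression). Normalization made the intensity distributions equal. Every wild type array was brighter than every ACC1 overexpression array, so array brightness and overexpression cannot be told apart in any difference.

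**Figure D1:**
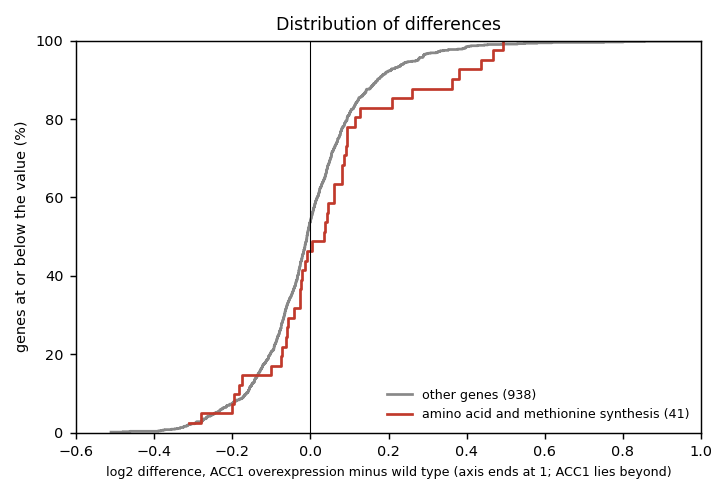
Share of genes at or below each log2 difference (ACC1 overexpression minus wild type), in percent, for the 41 amino acid and methionine synthesis genes and the other 938 genes on the array. The curves run close together around 0, with medians of 0.03 and −0.01.

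**Figure D2:**
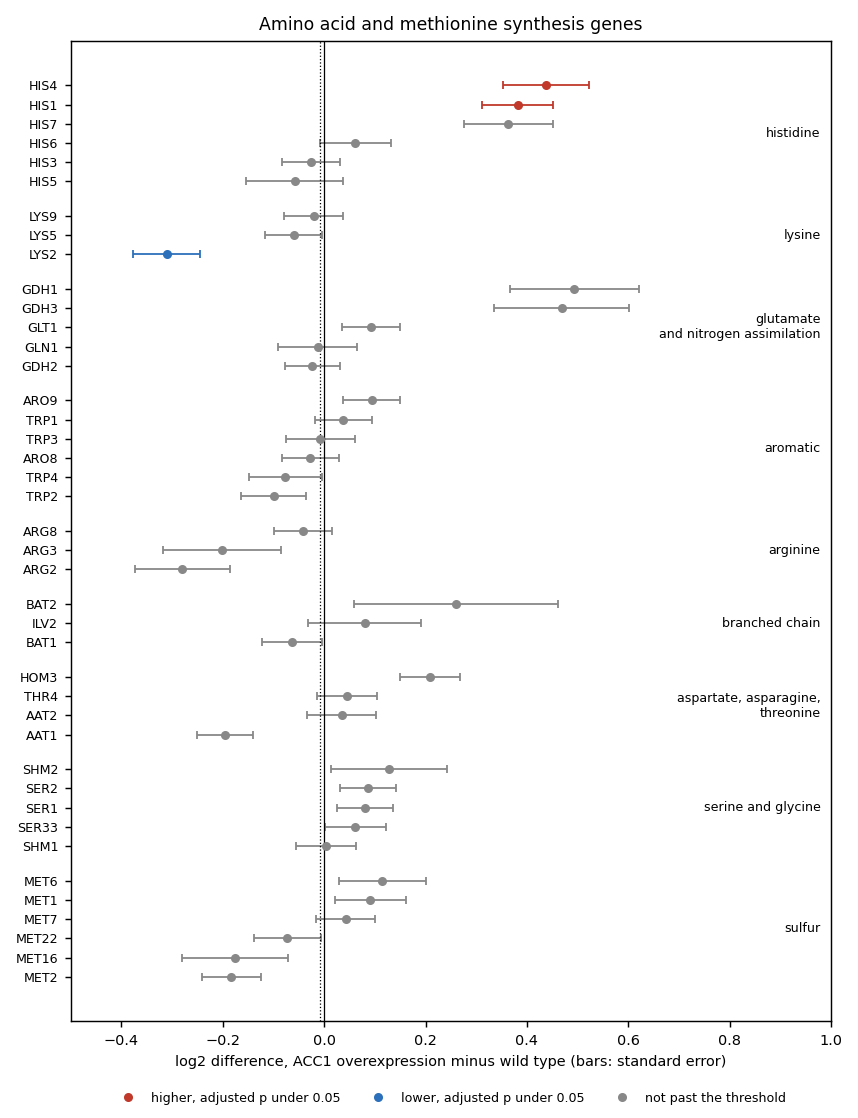
Log2 difference between ACC1 overexpression and wild type for each of the 41 genes, grouped by amino acid family. Points are differences of means of 3 arrays per group, bars are standard errors, and the dotted line is the median of all genes. HIS4 and HIS1 lie to the right and LYS2 to the left with an adjusted p under 0.05, and GDH1 (0.49) and GDH3 (0.47) lie further right with wider bars. TRP3 and SER2 exceeded the control probes on no array, and ARO8 and AAT1 on no ACC1 overexpression array. Their points are drawn as fitted and are not read as measured differences.

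Histidine synthesis was measured at 6 of its 7 genes. HIS1 encodes ATP phosphoribosyltransferase, which starts the pathway. Its normalized log2 intensity was 11.47, 11.40 and 11.56 on the wild type arrays and 11.94, 11.75 and 11.89 on the ACC1 overexpression arrays, in the order of replicates 1 to 3. All 3 ACC1 overexpression arrays lay above all wild type arrays. HIS1 rose by 0.38 on the log2 scale (standard error 0.07, 1.30-fold, limma adjusted p = 0.0340), and its 95% interval ran from 0.22 to 0.54. HIS4 encodes a multifunctional enzyme of the second, the third and the last steps. It stood at 11.78, 11.63 and 11.79 in wild type and at 12.08, 12.34 and 12.08 in ACC1 overexpression, again with no overlap. Its rise was 0.44 (standard error 0.08, 1.35-fold, limma adjusted p = 0.0393), with a 95% interval from 0.25 to 0.63. ACC1 overexpression replicate 2 was the highest array for HIS4, and its 2 spots differed, with unnormalized intensities of 2748 and 3782, whereas those of replicate 1 were 2880.5 and 2931.5.

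HIS7 encodes imidazole glycerol phosphate synthase, which closes the imidazole ring and releases the purine intermediate AICAR. HIS7 had log2 intensities of 11.93, 11.997 and 12.26 in wild type and 12.35, 12.46 and 12.45 in ACC1 overexpression. The groups did not overlap, but wild type replicate 3 lay closer to the ACC1 overexpression arrays than to its own group's replicates 1 and 2, and the difference of 0.36 (standard error 0.09) did not pass (limma adjusted p = 0.0604). Without wild type replicate 3, HIS7 passed (0.46, limma adjusted p = 0.00392), in a fit that called 12.6% of all genes. Without any other single array it did not (0.295 to 0.402, limma adjusted p from 0.112 to 0.232). The remaining histidine genes had overlapping groups. HIS6, the isomerase of the step before it, stood at 0.06 with a 95% interval from −0.10 to 0.22. HIS3, the dehydratase that acts next, stood at −0.03 with an interval from −0.16 to 0.10. HIS5, the aminotransferase after HIS3, stood at −0.06, with an interval from −0.28 to 0.16. These intervals do not reach the 0.38 seen for HIS1, though none of these genes was tested against HIS1. The family median was 0.21, and it was 0.18, 0.20 and 0.14 between arrays of replicate numbers 1, 2 and 3, which lay at the same position of the array layout in both groups. After normexp correction the family median was 0.33 to 0.34.

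**Figure D3:**
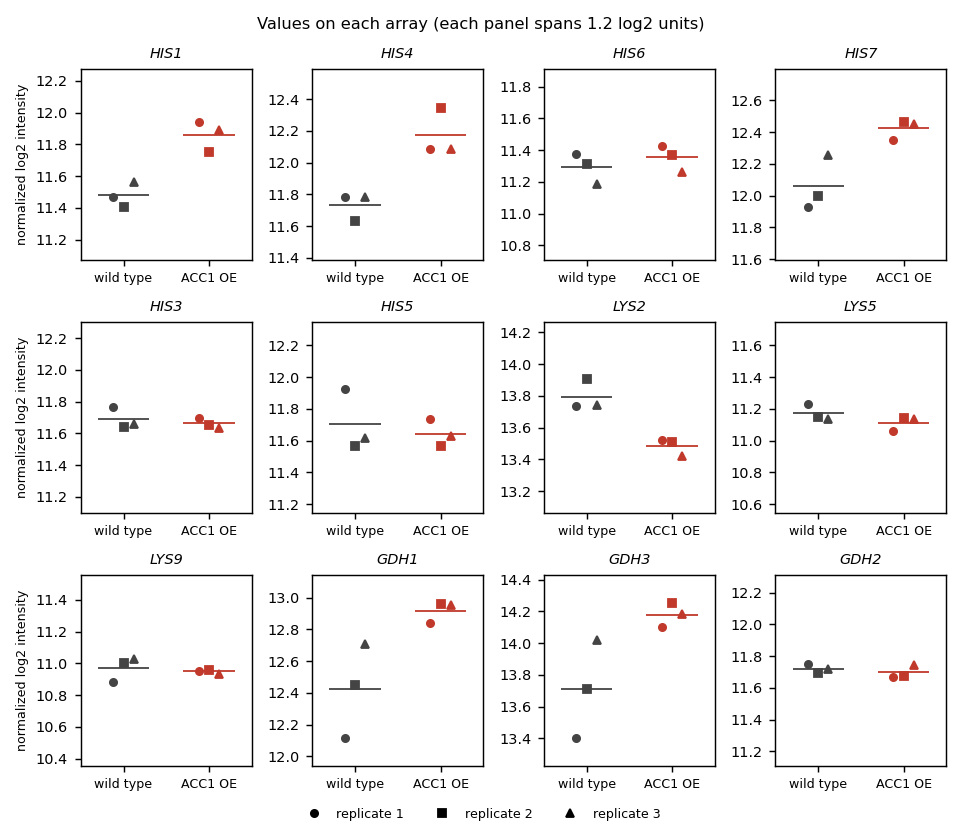
Normalized log2 intensity on each array for the 6 histidine genes, the 3 lysine genes and the 3 glutamate dehydrogenase genes, with a horizontal line at the mean of each group and 1 symbol per replicate number. Every panel spans the same range. HIS1, HIS4, HIS7, GDH1 and GDH3 have all 3 ACC1 overexpression arrays above wild type, and LYS2 has all 3 below. Wild type arrays spread widely for GDH1 and GDH3.

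Lysine synthesis was measured at 3 of 9 listed genes. LYS2 encodes alpha-aminoadipate reductase, which reduces alpha-aminoadipate to its semialdehyde and was read at log2 intensities of 13.73, 13.91 and 13.74 in wild type and 13.52, 13.51 and 13.42 in ACC1 overexpression. Its groups did not overlap, and LYS2 fell by 0.31 on the log2 scale (standard error 0.07, 1.24-fold, limma adjusted p = 0.0413), with a 95% interval from −0.46 to −0.16. LYS5, which encodes the phosphopantetheinyl transferase that activates Lys2, stood at −0.06 (limma adjusted p = 0.602). LYS9, the saccharopine dehydrogenase that consumes glutamate in the step after Lys2, stood at −0.02 (limma adjusted p = 0.885) and was above the control probes on 2 of 3 wild type arrays. HIS3, TRP1 and LYS2 also serve as selection markers in yeast, and the labels give no genotype at these loci.

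The calls of HIS1, HIS4 and LYS2 depended on single arrays, as did the number of calls over all genes. All 3 were lost without wild type replicate 2, with limma adjusted p of 0.174 for HIS1, 0.182 for HIS4 and 0.185 for LYS2. That fit called 0.511% of all genes, against 3.47% with all 6 arrays. The fits without ACC1 overexpression replicates 1, 2 and 3 called 0.511%, 0.409% and 0.715% of all genes. Without ACC1 overexpression replicates 1, 2 and 3, the limma adjusted p of HIS1 was 0.104, 0.0695 and 0.148. For HIS4 these were 0.0820, 0.138 and 0.0984, and for LYS2 they were 0.117, 0.148 and 0.186. The differences themselves kept their sign in all 6 fits with an array left out, from 0.34 to 0.44 for HIS1, from 0.35 to 0.48 for HIS4 and from −0.36 to −0.27 for LYS2. HIS1 and HIS4 passed in each of the 11 alternatives that used all 6 arrays. Normexp background correction with an offset of 50 gave each of them 0.68. LYS2 did not pass after normexp correction (−0.35, limma adjusted p = 0.146), after scaling to a common median (−0.22, limma adjusted p = 0.124) or with trended, robust variances (−0.31, limma adjusted p = 0.129).

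**Figure D4:**
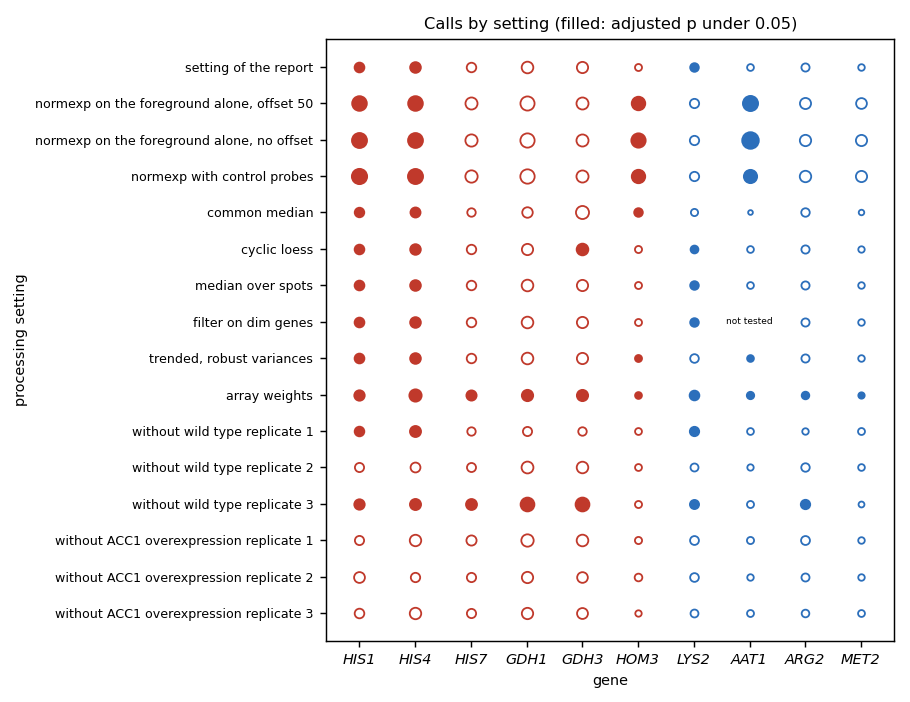
Processing settings (rows) against 10 of the 41 genes (columns), chosen after their values were seen. Marker size grows with the size of the log2 difference, red is higher and blue lower in ACC1 overexpression, and filled markers have an adjusted p under 0.05. The columns of HIS1 and HIS4 are filled in every row shown that used all 6 arrays, while the rows that drop wild type replicate 2 or 1 of the ACC1 overexpression arrays hold no filled marker. The fits without a filled marker called 0.409% to 0.715% of all genes.

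Among the 5 genes of glutamate and glutamine metabolism, none passed over all genes, and 2 were higher at an unadjusted limma p under 0.05. GDH1 and GDH3 encode the NADP-dependent glutamate dehydrogenases that join ammonium to alpha-ketoglutarate. GDH1 was at 12.12, 12.45 and 12.71 in wild type and at 12.84, 12.96 and 12.95 in ACC1 overexpression. Wild type varied far more (SD 0.30) than ACC1 overexpression (SD 0.07), and although the groups did not overlap, the difference of 0.49 (standard error 0.13) missed the threshold (limma adjusted p = 0.0784). For GDH3 the log2 intensities were 13.40, 13.71 and 14.02 in wild type and 14.10, 14.25 and 14.19 in ACC1 overexpression. The difference of GDH3 was 0.47 (standard error 0.13, limma adjusted p = 0.0994), and its wild type replicates were in the same order as those of GDH1. Both passed without wild type replicate 3, GDH1 at 0.63 (limma adjusted p = 0.00575) and GDH3 at 0.63 (limma adjusted p = 0.00493), in the fit that called 12.6% of all genes. Without wild type replicate 1 they stood at 0.34 (GDH1, limma adjusted p = 0.0727) and 0.30 (GDH3, limma adjusted p = 0.155), and no other left-out array gave either a call (limma adjusted p from 0.147 to 0.310). GDH3 also passed with cyclic loess (0.50, limma adjusted p = 0.0412). With the replicate number, and so the layout position, as a block, 12.4% of all genes passed, among them GDH1 (limma adjusted p = 0.00478), GDH3 (0.00878), HIS7 (0.00851), HOM3 (0.0365) and ARG2 (0.0152). Whether the numbers pair the arrays was not shown.

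The differences of GDH1 between arrays of replicate numbers 1, 2 and 3 were 0.72, 0.52 and 0.25. Those of GDH3 were 0.70, 0.54 and 0.17. GDH2, the NAD-dependent dehydrogenase that breaks glutamate down, had log2 intensities of 11.75, 11.69 and 11.72 in wild type and 11.67, 11.67 and 11.75 in ACC1 overexpression. Its difference was −0.02, with a 95% interval from −0.15 to 0.10. GLT1, glutamate synthase, stood at 0.09 with groups that did not overlap (limma adjusted p = 0.411), and GLN1, glutamine synthetase, stood at −0.01 (limma adjusted p = 0.962). The sign of GLN1 turned in 5 of the other fits.

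The aromatic family was measured at 6 of 16 listed genes, none of which passed or reached an unadjusted limma p under 0.05. The differences lay between −0.10 and 0.09. TRP2, which encodes the anthranilate synthase that opens the tryptophan branch, had the lowest (−0.10, 95% interval from −0.25 to 0.05). TRP4, the phosphoribosyl transferase of the next step, stood at −0.08. TRP1, the isomerase after it, stood at 0.04. ARO9, an aromatic aminotransferase of the breakdown route, had the highest difference, with log2 intensities of 11.88, 11.83 and 11.78 in wild type and 11.96, 11.91 and 11.90 in ACC1 overexpression (0.09, limma adjusted p = 0.389). Its groups did not overlap. Signal limited this family. TRP3, which encodes the partner subunit of anthranilate synthase and indole-3-glycerol phosphate synthase, exceeded the control probes on no array. ARO8, the aminotransferase of phenylalanine and tyrosine synthesis, did so on 1 wild type array alone, so no difference is given in the text for either. TRP4 exceeded them on 1 array of each group, and TRP1 and TRP2 on 2 of 3 wild type arrays. No gene of the shikimate route proper (ARO1, ARO2, ARO3, ARO4 and ARO7) was measured.

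Arginine synthesis was measured at 3 of 12 listed symbols. It held no gene past the threshold, and 1 of its 3 genes was lower at an unadjusted limma p under 0.05. That was ARG2, acetylglutamate synthase, which commits glutamate to the pathway. ARG2 lay at 12.08, 11.83 and 11.71 in wild type and 11.68, 11.57 and 11.53 in ACC1 overexpression. The groups came close without overlapping, and the difference was −0.28 (standard error 0.09, limma adjusted p = 0.142). It passed without wild type replicate 3 (−0.36, limma adjusted p = 0.0340). Leaving out wild type replicate 1 in turn gave ARG2 −0.18 (limma adjusted p = 0.239). ARG3, ornithine carbamoyltransferase, stood at −0.20, and its wild type replicate 3 (12.49) lay below all ACC1 overexpression arrays, the lowest of which was 12.50. The difference of ARG3 was −0.33 without wild type replicate 3 (limma adjusted p = 0.0396) and −0.07 without wild type replicate 1 (limma adjusted p = 0.710). ARG8, acetylornithine aminotransferase, stood at −0.04, the highest of the family. ARG56, which encodes acetylglutamate kinase and the following reductase, is written in the files with a space inside its symbol and so fell outside the rule, and it stood at 0.04 (limma adjusted p = 0.720). ARG7 is named ECM40 in the files and so fell outside the rule too. It was counted with carbon and one-carbon supply and stood at −0.05 (limma adjusted p = 0.810).

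The aspartate family was measured at 4 of 9 listed genes. None passed, while at an unadjusted limma p under 0.05 HOM3 was higher and AAT1 lower. HOM3 encodes aspartate kinase, the entry to threonine and methionine. It had log2 intensities of 10.95, 10.95 and 10.98 in wild type and 11.15, 11.10 and 11.25 in ACC1 overexpression, and the groups did not overlap (0.21, standard error 0.06, limma adjusted p = 0.0964). It was above the control probes on 2 of 3 wild type arrays. HOM3 passed with a common median (0.31, limma adjusted p = 0.0201), with trended, robust variances (limma adjusted p = 0.0485) and after normexp with an offset of 50 (0.61, limma adjusted p = 0.0392). Those fits called 7.56%, 2.96% and 3.88% of all genes. With the common median, the median difference of all genes was 0.05, against −0.009 in the main fit. With any 1 array left out, HOM3 did not pass (limma adjusted p from 0.0657 to 0.296). AAT1, the mitochondrial aspartate aminotransferase, had 11.01, 11.06 and 10.98 in wild type and 10.85, 10.78 and 10.84 in ACC1 overexpression. It exceeded the control probes on no ACC1 overexpression array and on 2 wild type arrays. Its fall was therefore given as a bound, 1.11-fold lower than in wild type. The level on each ACC1 overexpression array was its own signal or, where higher, the dimmest signal of any gene that exceeded the control probes there. Wild type values were left as read. This bound was not tested, and the limma adjusted p of 0.0964 belongs to the difference without it (−0.20). AAT1 passed after normexp with an offset of 50 (−0.71, limma adjusted p = 0.0207) and with trended, robust variances (limma adjusted p = 0.0485), and with a common median it stood at −0.07 (limma adjusted p = 0.409). With any 1 array left out, AAT1 did not pass (limma adjusted p from 0.0503 to 0.322). AAT2, the cytosolic aspartate aminotransferase, stood at 0.03 and THR4, threonine synthase, at 0.05.

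The branched chain family was measured at 3 of 13 listed genes, with none past the threshold and none at an unadjusted limma p under 0.05. BAT2, the cytosolic branched chain aminotransferase, had the highest difference of the family, which came from a single spot. Its log2 intensities were 13.26, 13.50 and 13.36 in wild type and 14.20, 13.34 and 13.36 in ACC1 overexpression. Of its 3 spots on ACC1 overexpression replicate 1, 1 was at the scanner limit of 65535, and the other two were at 6205.5 and 7138.5. That was the only saturated spot of the 41 genes. The difference of 0.26 (standard error 0.20, limma adjusted p = 0.513) became 0.04 when the median over spots was used and −0.02 without that array. BAT1, the mitochondrial enzyme, had the lowest difference, −0.06, and was above the control probes on 2 of 3 wild type arrays. ILV2, acetolactate synthase, stood at 0.08.

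**Figure D5:**
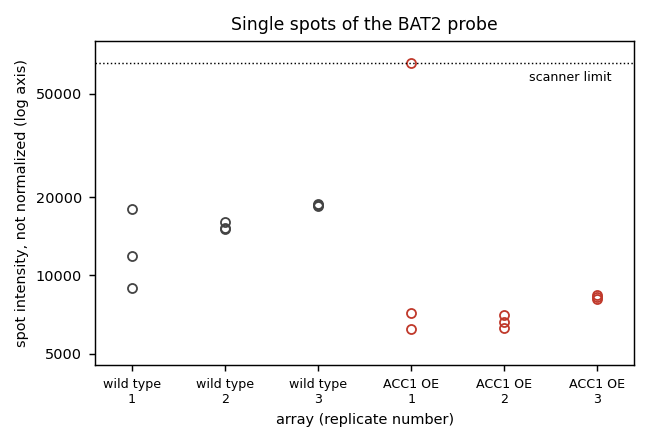
Unnormalized intensities of the single spots of the BAT2 probe on each of the 6 arrays, on a log axis. A single spot of ACC1 overexpression replicate 1 lies at the scanner limit of 65535, and the other spots of that array lie with those of replicates 2 and 3.

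Serine and glycine synthesis was measured at 5 of 7 listed genes. None passed or reached an unadjusted limma p under 0.05. SHM2, the cytosolic serine hydroxymethyltransferase, had the highest (0.13, 95% interval from −0.13 to 0.39), and SHM1, its mitochondrial counterpart, the lowest (0.00, interval from −0.13 to 0.14). The sign of SHM1 turned in 5 other fits. SER33 and SER1, which encode the dehydrogenase and aminotransferase on the way from phosphoglycerate to serine, stood at 0.06 and 0.08. SER2, the phosphatase that ends this route, exceeded the control probes on no array, so no difference is given in the text. It did pass with a common median (limma adjusted p = 0.0365), in a fit that called 7.56% of all genes.

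The sulfur and methionine genes numbered 6, and none passed, with 1 lower at an unadjusted limma p under 0.05. MET2, homoserine acetyltransferase, which starts the branch to methionine, was at 11.29, 11.31 and 11.42 in wild type and at 11.15, 11.13 and 11.19 in ACC1 overexpression. The groups did not overlap, and the difference of −0.18 (standard error 0.06) did not pass (limma adjusted p = 0.129). MET6, the methionine synthase that ends the pathway, had the highest difference of the 6 (0.12, limma adjusted p = 0.501), with ACC1 overexpression replicate 3 at 13.99 above the other arrays, which lay from 13.60 to 13.75. MET16, the reductase of activated sulfate, stood at −0.18 (limma adjusted p = 0.389). Over all fits MET16 ran from −0.33 with array weights to −0.055 with the median over spots. MET1, an enzyme of siroheme synthesis for sulfite reductase, stood at 0.09. MET22, a nucleotidase that removes the by-product of sulfate reduction, stood at −0.07. MET7 encodes folylpolyglutamate synthetase, stood at 0.04 and was above the control probes on 2 of 3 wild type arrays.

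Genes next to these pathways were drawn from lists of regulators, precursor supply, breakdown and the purine branch. Of 13 measured regulators, none passed, and 2 were higher at an unadjusted limma p under 0.05, which 20.1% of all genes reached. GCD6, the catalytic subunit of the translation factor eIF2B through which general amino acid control acts, had the highest difference (0.24, limma adjusted p = 0.125), and GCD2, another subunit of eIF2B, the lowest (−0.14, limma adjusted p = 0.513). GCN2, the kinase that senses uncharged tRNA, stood at −0.01.

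In carbon and one-carbon supply, 2 of 23 genes rose and none fell. That is 8.7%, beside 3.47% of all genes called. PYC1, a pyruvate carboxylase that makes oxaloacetate, the carbon skeleton of aspartate, rose by 0.49 (standard error 0.08, limma adjusted p = 0.0193). SAM1, an S-adenosylmethionine synthetase that uses methionine, rose by 0.35 (standard error 0.06, limma adjusted p = 0.0211), while its paralog SAM2 stood at 0.02. SAM1 was above the control probes on 2 of 3 wild type arrays. The lowest of the list was IDP3, the peroxisomal isocitrate dehydrogenase (−0.38, limma adjusted p = 0.299), whose wild type arrays varied with an SD of 0.46. PYC1 and SAM1 lost their calls without wild type replicate 2 (limma adjusted p = 0.0921 for each), in the fit that called 0.511% of all genes. Leaving out ACC1 overexpression replicates 1, 2 and 3 gave 0.0820, 0.0931 and 0.103 for PYC1 and 0.0820, 0.0931 and 0.0984 for SAM1. Among 9 breakdown genes, 1 was called (11.1%, beside 3.47% of all genes). This was DUR12, the urea amidolyase, which rose (0.33, limma adjusted p = 0.0412) and was above the control probes on 2 of 3 wild type arrays. UGA2 of the 4-aminobutyrate route was the lowest of the breakdown genes (−0.22, limma adjusted p = 0.0657). UGA2 exceeded the control probes on 2 wild type arrays and 1 ACC1 overexpression array. DUR12 lost its call without wild type replicates 1 and 2 (limma adjusted p = 0.0576 and 0.185) and without ACC1 overexpression replicates 1, 2 and 3 (0.0820, 0.148 and 0.148).

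Of the purine branch, which shares phosphoribosyl pyrophosphate and AICAR with histidine synthesis, 3 genes were measured. None passed or had an unadjusted limma p under 0.05, with ADE8 the highest at 0.07 and ADE4, the entry enzyme of purine synthesis, the lowest at −0.12. The sporulation list could be read at 1 of its 3 measured genes. SPO1 had saturated spots on all 6 arrays, and SPO11, the meiotic nuclease, exceeded the control probes on 1 array in all. IME1, the inducer of meiosis, stood at 0.28 (limma adjusted p = 0.0502), higher at an unadjusted limma p under 0.05.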

How the data were processed

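The deposited scanner output lists the median foreground intensity of each of 2240 spots per array and, per the file headers, no background column. Whether the authors subtracted background is unknown here. A second table deposited by the authors has 906 numbered rows with 1 score for each array, of unknown scale, centring and direction (column medians −0.15 to −0.06). Its row numbers did not follow the scanner probes (r from −0.053 to −0.035 across rows), so it was not used for any gene.

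Intensities were taken to log2, quantile normalized over the yeast spots and averaged over the spots of a probe, without the 26 control probes. A gene counted as above the control probes on an array when it exceeded their 95th percentile, which 635 to 891 of 979 genes and 30 to 39 of the 41 genes did. The median yeast spot of an array was between 1796 and 4565. The number of arrays limits the precision. No background was subtracted here. Where background remains in the signal, folds are understated.

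Groups were compared with limma 3.58.1 in R 4.3.3 (lmFit and eBayes, two-sided, 3 arrays per group, Benjamini-Hochberg over all genes, threshold 0.05). The fit was also run on simulated data with independent noise and a constant brightness offset between groups. Those data held no layout effect and no unequal spread of arrays, so that run cannot speak to either. The genes and lists were chosen with earlier results of these data known. Named genes are every measured member of the histidine, lysine, glutamate and aromatic families, members past the threshold, the highest and lowest member of each other family, and the same for the neighbouring lists. ARG56 and the other named genes of those families and lists were added after values were seen. Alternatives covered background correction, normalization, the median in place of the mean of spots, removal of dim genes, variances, array weights, a replicate block and leaving out each array. Gene names came from the R64 table, which held all 979 systematic names.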

Additional observations from a re-analysis of the deposited data

How the results depend on the processing

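The 2 genes called higher and 1 called lower moved to 4 and 0 with a common median (7.56% of all genes called), 6 and 5 when arrays were weighted (18.0%), 0 and 0 at a stricter threshold of 0.01 (0.511%) and 6 and 2 at 0.1 (6.95%). Dropping 1 array at a time gave 0 to 5 higher and 0 to 3 lower genes, while the share of all genes called ran from 0.409% to 12.6%, and the cause was not tested. The median difference of the 41 genes, 0.03, lay between −0.003 and 0.02 when single arrays were dropped. ACC1 passed in all 18 fits. Of the 36 genes in all 18 fits, 23 kept 1 sign, as did 2 of the 5 that the filter on dim genes removed. Of the 41 genes, 28 passed in no fit they entered. The fits called from 0.409% to 18.0% of all genes, and the share of all genes that passed in no fit was not counted. Over the 17 alternatives, values of these genes kept their side of the threshold 638 times, lost it 18 times, gained it 36 times and reversed 0 times, a term kept for calls that changed sign. The replicate block gave 6 higher and 2 lower genes, with 12.4% of all genes called, or 6 and 3 together with normexp at an offset of 50 (14.5%). Deviations from the group means of arrays with the same number correlated at r of 0.467, −0.021 and 0.385 across all genes. Wild type replicate 1 with ACC1 overexpression replicate 3 gave −0.367. Wild type replicate 3 with ACC1 overexpression replicate 1 gave −0.498. Arrays of numbers 1 and 3 correlated best with their own number, and those of number 2 did not. The main fit took no pairs, and an effect of the shared layout position was not tested. The search of promoters for motifs was not run, since no promoter sequence was used here. Depth of signal limits dim genes: 11 of the 41 were below the control probes' 95th percentile on at least 1 array, and 5 of these left the test under the filter on dim genes, which kept 36.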
